A study of Mus musculus with 6 samples.

Results

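The signalling adaptors and kinases that carry Toll-like receptor (TLR) and interleukin-1 (IL-1) receptor signals from the membrane to the IKK complex and the MAP kinases were described in Raw264.7 macrophages after knockdown of *Etv5*. Members were chosen by gene symbol from a list of co-receptors, adaptors and kinases, and all 34 of the 34 symbols were found among the 24786 gene symbols of the expression table. Messenger RNA was sequenced from Raw264.7 cells, a mouse macrophage line established from a tumor induced by Abelson leukemia virus, in 3 libraries with a control shRNA (sh-NC) and 3 libraries with an shRNA against *Etv5* (sh-*Etv5*), an ETS family transcription factor. Both groups are the same line, both were infected with shRNA lentivirus and no TLR or IL-1 ligand is named for either. The labels of both give the mouse strain C57BL/6, which the study names for its mice and not for this line. That label was not checked. The labels name Lipofectamine for both groups and give a pair of times after infection without saying which applies to the RNA. Which of the designed shRNAs was sequenced is not given, and the sources do not say whether each library stems from its own culture or infection. The p-values below therefore measure the spread between these libraries, which may be technical. Values are RPKM, that is reads scaled by gene length and by the number of mapped reads, so levels of different genes are compared per length.

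TLRs and the IL-1 receptor share a cytoplasmic TIR domain, which recruits adaptor proteins once a ligand is bound. The MyD88 adaptor assembles IRAK kinases and the ubiquitin ligase TRAF6, which activate the TAK1 kinase complex and through it the IKK complex and the p38 and JNK MAP kinases, whereas the TRIF adaptor leads through TRAF3 to interferon genes. In macrophages this cascade turns bacterial products such as lipopolysaccharide (LPS) into inflammatory cytokine production, and Tpl2 (*Map3k8*) links IKK to the ERK MAP kinases.

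The 6 libraries were alike within each group. RPKM values summed to 320462 to 322949 per sh-NC library and to 330454 to 340257 per sh-*Etv5* library. The level of *Etv5* itself was 9.18, 9.89 and 9.39 RPKM in sh-NC and 5.19, 4.91 and 5.28 RPKM in sh-*Etv5*, although 24.5% of its 50-base stretches also occur elsewhere in the annotated transcripts, mainly in *Gm4798*. Of 10 macrophage markers, 9 reached 1 RPKM, and their summed level was 3887 to 3992 RPKM in sh-NC and 2871 to 2947 RPKM in sh-*Etv5*. That sum was mostly *Lyz2* (2834 and 2041 RPKM), and the markers did not move together, since 3 were higher (*Adgre1*, from 2.60 to 11.3 RPKM, *Itgam*, from 33.8 to 127 RPKM, and *Spi1*), 5 lower (*Lyz2*, *Csf1r*, *Cd68*, *Fcgr1* and *Cd33*) and *Ptprc* was not called. Of 7 neutrophil markers only *S100a8* reached 1 RPKM, and that sum rose from at most 0.630 to at least 15.6 RPKM, with *Elane*, *Ly6g* and *S100a9* at 0 in all libraries. Of 6 osteoclast markers 3 reached 1 RPKM, with a sum of 13.7 to 14.8 RPKM in sh-NC and 6.20 to 6.61 RPKM in sh-*Etv5*. That sum was mostly *Dcstamp*, which was lower (log2 fold change -1.45), whereas *Acp5* was higher (1.18). No marker of dendritic, T, NK, B, fibroblast or epithelial cells reached 1 RPKM. The part of these markers in the results below was not tested, and in bulk RNA fewer cells of a type and less RNA per cell cannot be told apart.

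Of the 34 members, 32 had at least 1 RPKM in at least 3 libraries and were tested, 13 were higher and 13 lower in sh-*Etv5* than in sh-NC (limma on log2(RPKM + 1), Benjamini-Hochberg adjusted p under 0.05), and 6 were not called. The called share of 81.25% stands beside 74.3% of all 10738 genes tested, of which 33.3% were higher and 41.0% lower, so a call alone says little about the members. A fold change of at least 1.5 on the log2(RPKM + 1) scale, which understates the change of weakly expressed genes, was passed by *Ticam1* and *Irak2* (higher) and by *Irak1* (lower), 9.375% of the tested members against 24.8% of all tested genes. This count rested on the settings, with 6 members (18.75%) past 1.5-fold at pseudocounts of 0.1 and 0.01, against 29.7 and 30.2% of all tested genes, and 6 after rescaling to the same sum, against 25.7%. It was 5 without sh-NC replicate 2 (against 25.0%) and 5 without sh-*Etv5* replicate 2 (against 25.1%). The median log2 fold change of the tested members was 0.00 and the median of its absolute value 0.34, beside -0.05 and 0.31 over all tested genes. The libraries of both groups did not overlap for 26 tested members (81.25%), compared with 76.4% of all tested genes.

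**Figure D1:**
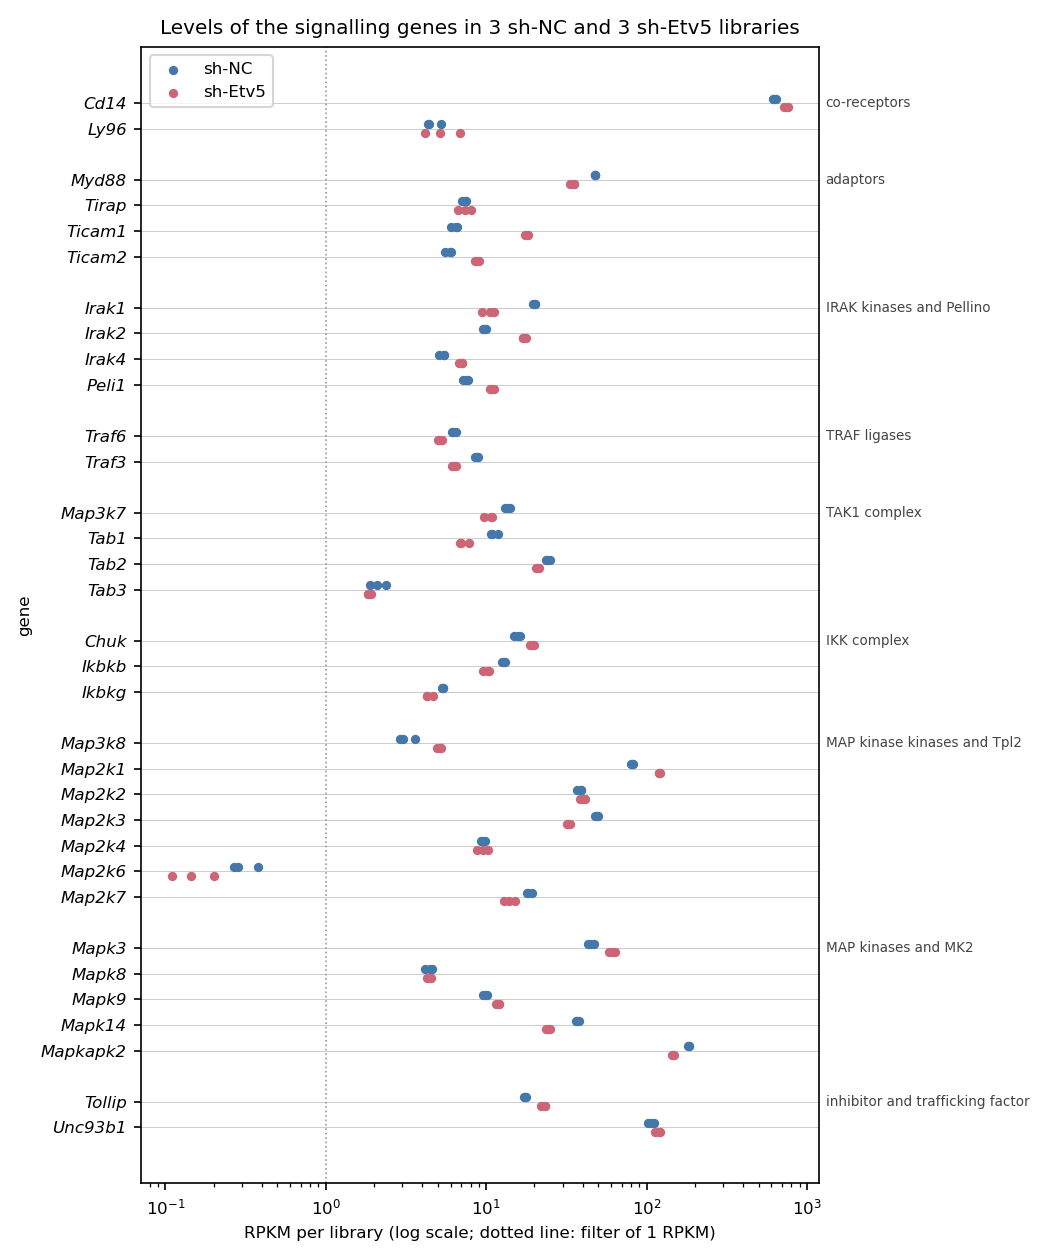
Level of each member in the 3 sh-NC and the 3 sh-Etv5 libraries, in RPKM on a log axis, with 1 point per library and genes grouped by role. Lbp, at 0 in all libraries, is not drawn, and the dotted line marks the filter of 1 RPKM, below which only Map2k6 lies. Ticam1 and Irak2 lie higher and Irak1 lower in sh-Etv5, and Cd14 is at the top with 618 RPKM or more in every library.

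The upstream sequences of the 3 members past 1.5-fold are shown because ETV5 is a DNA-binding factor and these genes moved in opposite directions. They are the 250 bases before the RefSeq start on GRCm38.p6, read 5′ to 3′ on the strand of the gene, and capitals mark matches to any of the motifs searched. *Ticam1* lies on the minus strand (chr17:56276768-56277017), *Irak1* on the minus strand (chrX:74023922-74024171) and *Irak2* on the plus strand (chr6:113638217-113638466). For *Irak1*, which has 2 RefSeq windows, the first listed is shown.
Ticam1: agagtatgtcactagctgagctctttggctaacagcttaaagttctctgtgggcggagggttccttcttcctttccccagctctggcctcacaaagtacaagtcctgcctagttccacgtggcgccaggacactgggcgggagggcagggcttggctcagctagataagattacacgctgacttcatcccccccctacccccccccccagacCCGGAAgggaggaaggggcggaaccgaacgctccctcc
Irak1: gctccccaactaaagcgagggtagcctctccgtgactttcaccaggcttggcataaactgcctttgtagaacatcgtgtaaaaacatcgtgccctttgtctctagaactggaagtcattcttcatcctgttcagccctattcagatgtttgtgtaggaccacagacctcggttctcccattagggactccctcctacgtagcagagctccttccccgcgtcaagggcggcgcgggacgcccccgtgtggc
Irak2: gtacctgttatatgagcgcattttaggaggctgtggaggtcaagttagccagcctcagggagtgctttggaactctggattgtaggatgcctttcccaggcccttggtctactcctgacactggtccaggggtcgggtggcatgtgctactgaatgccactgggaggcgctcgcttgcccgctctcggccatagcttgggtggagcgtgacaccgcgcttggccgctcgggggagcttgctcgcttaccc
The *Ticam1* window holds 1 match, to the ETS core, whose first base lies at -38 from the start, while the *Irak1* and *Irak2* windows hold none. Their GC contents are 59.6%, 54.8% and 60.0%, in this order. The motifs were searched on both strands. They were CCGGAAGT, preferred by ETS factors of the PEA3 group to which ETV5 belongs, and its core CCGGAA, which every longer match contains. The κB-like string GGGANTTCC and the AP-1-like string TGANTCA were also searched. N stands for any base, and other forms of the κB and AP-1 sites were not searched. Of the 34 members, 25 were in the promoter table, in windows of 250 bases before to 50 bases after the start. CCGGAA was found for 12 of them (*Chuk*, *Ikbkg*, *Irak4*, *Map2k1*, *Map2k3*, *Map2k4*, *Map3k7*, *Mapk14*, *Ticam1*, *Tirap*, *Tollip* and *Traf3*). That was 13 of 37 member windows, against 4894 of all 32851 windows (14.9%). This motif was added after the data were seen, and the difference between these shares was not tested. These 12 include genes that were higher, lower and not called. CCGGAAGT was found only for *Ikbkg* (3.89% of all windows) and GGGANTTCC only for *Traf3* (1.68%). TGANTCA was found for *Ikbkg*, *Map2k6* and *Map2k7* (7.81%). Of these, only *Ikbkg* had TGAGTCA, whereas *Map2k6* and *Map2k7* matched only as TGATTCA. A match describes the letters only and is no evidence of binding.

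Among the co-receptors, *Cd14*, which hands LPS to the receptor complex, was the most abundant member. Its level was 639.6, 618 and 625 RPKM in sh-NC and 761, 720.3 and 755 RPKM in sh-*Etv5*. All sh-*Etv5* libraries lay above all sh-NC libraries (log2 fold change 0.25, SE 0.0335, adjusted p = 4.58e-05). *Ly96* encodes MD-2, the LPS-binding partner of TLR4, and was far weaker, at 4.67 ± 0.498 RPKM in sh-NC and 5.41 ± 1.39 RPKM in sh-*Etv5* (SD, n = 3). Its groups overlapped and the sh-*Etv5* libraries spread from 4.16 to 6.90 RPKM, so no difference was detected (log2 fold change 0.16, 95% confidence interval -0.13 to 0.45, adjusted p = 0.286). *Lbp*, the serum LPS-binding protein, was listed at 0 in all 6 libraries and was not tested.

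The adaptors moved apart. *Ticam1*, the gene of TRIF, lies on chromosome 17 from 56269319 to 56276786 (GRCm38, minus strand), and its principal coding transcript has 2 exons. It was measured at 6.58, 6.08 and 6.49 RPKM in sh-NC and at 18.1, 17.9 and 17.6 RPKM in sh-*Etv5*. The lowest sh-*Etv5* library was thus far above the highest sh-NC library. This was the largest change of the tested members, a ratio of RPKM means of 2.80 and a log2 fold change of 1.35 (SE 0.0497, adjusted p = 1.08e-09), and 95.4% of all tested genes changed by less. *Ticam2*, the gene of TRAM, which bridges TLR4 to TRIF, was measured at 5.55, 6.01 and 5.99 RPKM in sh-NC and at 8.75, 9.04 and 8.51 RPKM in sh-*Etv5*. It was higher in every sh-*Etv5* library (log2 fold change 0.51, SE 0.0561, adjusted p = 8.23e-06), with the limit that 14.75% of its 50-base stretches are shared with other transcripts, mainly of *Tmed7*.

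*Myd88*, the adaptor used by most TLRs and by the IL-1 receptor, went the other way. Its levels were 47.4, 47.9 and 47.5 RPKM in sh-NC and 35.4, 35.3 and 33.5 RPKM in sh-*Etv5*. The groups did not overlap, and the mean fell by 27.0% (log2 fold change -0.44, SE 0.0370, adjusted p = 8.59e-07). Part of the gene (7.42% of its 50-base stretches are shared) overlaps *Acaa1a* on the opposite strand, and whether reads were counted by strand is not given in the sources used here. *Tirap*, the gene of MAL, which brings MyD88 to the membrane, was measured at 7.32 ± 0.224 RPKM in sh-NC and 7.37 ± 0.722 RPKM in sh-*Etv5* (SD, n = 3). Its groups overlapped (log2 fold change 0.00, 95% confidence interval -0.15 to 0.16, adjusted p = 0.958), and 9.7% of its 50-base stretches are shared, mainly with *Gm39318* on the opposite strand. *Myd88* thus made up 87.8, 88.7 and 88.0% of the summed RPKM of *Myd88* and *Ticam1* in sh-NC and 66.2, 66.4 and 65.6% in sh-*Etv5*. The sum of both adaptor genes was 54.0 ± 0.0336 RPKM in sh-NC and 52.6 ± 1.29 RPKM in sh-*Etv5* (SD, n = 3).

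The IRAK kinases, which dock on MyD88, showed the other sizeable shift. *Irak1*, on chromosome X from 74013914 to 74023918 (minus strand, 14 exons), was measured at 20.3, 19.6 and 20.2 RPKM in sh-NC and at 10.6, 11.1 and 9.36 RPKM in sh-*Etv5*. Every sh-*Etv5* library was below every sh-NC library, and the mean fell by 48.2% (log2 fold change -0.89, SE 0.0599, adjusted p = 1.41e-07), the largest decrease of the tested members. *Irak2*, on chromosome 6 from 113638467 to 113695026 (plus strand, 13 exons), encodes a family member that takes part in sustained TLR signalling. It was measured at 9.62, 9.73 and 10.0 RPKM in sh-NC and at 17.0, 17.6 and 17.1 RPKM in sh-*Etv5*. The groups were far apart, with a ratio of means of 1.76 (log2 fold change 0.76, SE 0.0452, adjusted p = 5.35e-08). *Irak1* was therefore the more abundant of both in every sh-NC library and *Irak2* in every sh-*Etv5* library. The share of *Irak2* in their sum was 32.2, 33.2 and 33.1% in sh-NC and 61.5, 61.3 and 64.6% in sh-*Etv5*, while the sum itself was 29.8 ± 0.470 and 27.6 ± 1.15 RPKM (SD, n = 3). The annotation places 5.75% shared stretches in *Irak2*, with *Gm43963* on the opposite strand, and 2.25% in *Irak1*.

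The other members at this step rose by less. *Irak4*, the kinase that starts IRAK activation, was at 5.35 ± 0.201 RPKM in sh-NC and 6.96 ± 0.172 RPKM in sh-*Etv5* (log2 fold change 0.33, SE 0.0566, adjusted p = 0.000309), with 5.11% of its 50-base stretches shared, mainly with *Twf1* on the opposite strand. *Peli1*, a Pellino ubiquitin ligase that binds IRAK kinases, was at 7.47 ± 0.257 RPKM in sh-NC and 10.8 ± 0.342 RPKM in sh-*Etv5* (log2 fold change 0.48, SE 0.0523, adjusted p = 7.49e-06). Neither gene's groups overlapped. Both TRAF ubiquitin ligases fell, *Traf6*, which signals from the IRAK kinases to TAK1, from 6.27 ± 0.163 to 5.12 ± 0.135 RPKM (log2 fold change -0.25, SE 0.0563, adjusted p = 0.00211). *Traf3*, which acts behind TRIF in the interferon branch, fell from 8.75 ± 0.203 to 6.27 ± 0.165 RPKM (log2 fold change -0.42, SE 0.0527, adjusted p = 2.31e-05). Among the 3 genes of the TRIF branch, *Ticam1* and *Ticam2* were thus higher and *Traf3* lower. Among the 6 genes of the MyD88 branch, *Irak2* and *Irak4* were higher, *Myd88*, *Irak1* and *Traf6* lower, and *Tirap* was not called. As 33.3% of all tested genes were higher and 41.0% lower, these counts of few genes are a description only.

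**Figure D2:**
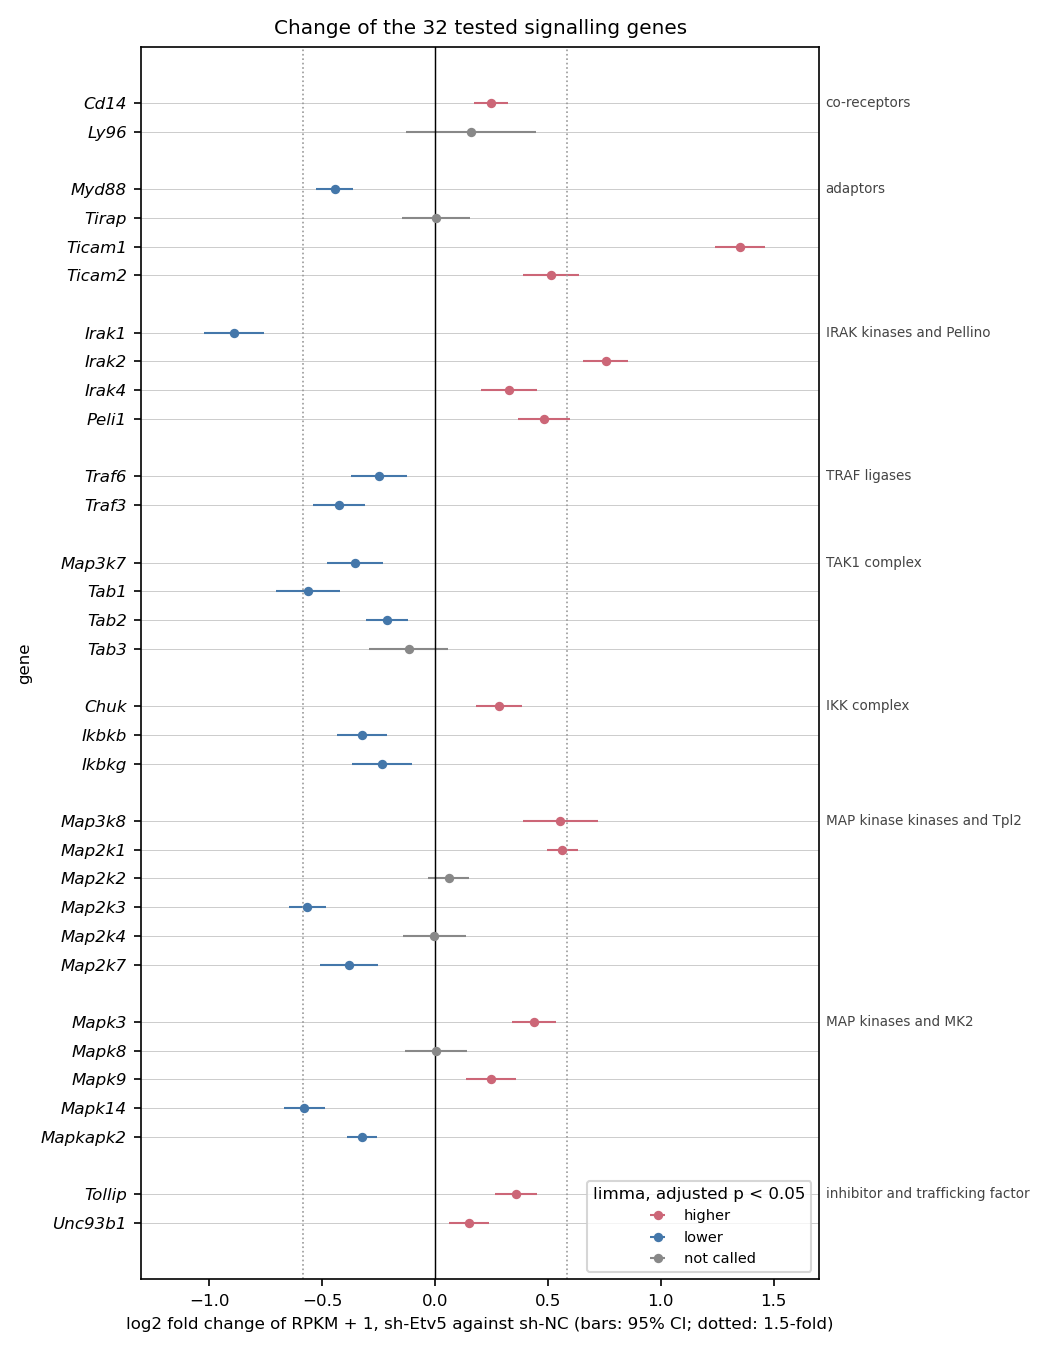
Difference between sh-Etv5 and sh-NC for the 32 tested members, as the log2 fold change of RPKM + 1 from limma with its 95% confidence interval (3 libraries per group). Colours give the call at an adjusted p under 0.05 and dotted lines 1.5-fold. Ticam1 (1.35), Irak2 (0.76) and Irak1 (-0.89) lie past the dotted lines, and the 6 grey members have intervals that include 0.

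Of the 4 members of the TAK1 complex, 3 were lower and 1 was not called, while 33.3% of all tested genes were higher and 41.0% lower. None of the 4 passed 1.5-fold under the main settings. *Map3k7*, which encodes the TAK1 kinase, was measured at 13.6 ± 0.487 RPKM in sh-NC and 10.5 ± 0.654 RPKM in sh-*Etv5*, a fall of 23.2% in the mean (log2 fold change -0.35, SE 0.0559, adjusted p = 0.000159). *Tab1*, an activating partner of TAK1, had the largest decrease of the complex, with 11.8, 10.7 and 10.9 RPKM in sh-NC and 6.84, 7.87 and 6.98 RPKM in sh-*Etv5* (log2 fold change -0.56, SE 0.0639, adjusted p = 1.13e-05). Its groups were well separated. *Tab2* and *Tab3* encode subunits that bind ubiquitin chains. *Tab2* fell from 24.3 ± 0.760 to 20.8 ± 0.470 RPKM (log2 fold change -0.21, SE 0.0422, adjusted p = 0.000893). *Tab3*, the weakest tested member, was measured at 1.89, 2.08 and 2.36 RPKM in sh-NC and at 1.83, 1.84 and 1.92 RPKM in sh-*Etv5*. Its groups overlapped, and no difference was detected (log2 fold change -0.12, 95% confidence interval -0.29 to 0.06, adjusted p = 0.206).

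Within the IKK complex the catalytic subunits moved in opposite directions. *Chuk*, the gene of IKKα, was measured at 15.8, 16.3 and 15.0 RPKM in sh-NC and at 19.2, 18.9 and 19.8 RPKM in sh-*Etv5* (log2 fold change 0.28, SE 0.0466, adjusted p = 0.000211). *Ikbkb*, the gene of IKKβ, the main kinase of the inhibitor IκBα, was measured at 13.1, 12.5 and 12.9 RPKM in sh-NC and at 10.3, 10.3 and 9.56 RPKM in sh-*Etv5* (log2 fold change -0.32, SE 0.0504, adjusted p = 0.000137). Neither pair of groups overlapped, and the ratio of *Chuk* to *Ikbkb* was 1.22 in sh-NC and 1.92 in sh-*Etv5* (geometric means over libraries). *Ikbkg*, which encodes the regulatory subunit NEMO, fell from 5.36 ± 0.0446 to 4.41 ± 0.204 RPKM (log2 fold change -0.23, SE 0.0594, adjusted p = 0.00419). It overlaps *G6pdx* on the opposite strand, with 4.38% of its 50-base stretches shared.

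Behind these steps the listed members of the ERK, p38 and JNK arms of the MAP kinase cascade differed in direction. The arms were set out after the values had been seen, so their counts are a description only. In the ERK arm, 3 of 4 members were higher and 1 was not called, and their median log2 fold change was 0.50. In the p38 arm, all 3 tested members were lower, with a median of -0.57, which holds for the genes placed in this arm. Other p38 genes, which are no members, went the other way, *Mapk11* (p38β) with a log2 fold change of 0.88. *Mapk12* (means of 0.181 RPKM in sh-NC and 0.715 RPKM in sh-*Etv5*) and *Mapk13* (0.0538 and 0.605 RPKM) lay below the filter. Of the 16 tested genes of other MAP kinase tiers, which are no members, 8 were higher, 5 lower and 3 not called. These include the kinases *Mknk1* (0.45), *Mapkapk5* (0.35) and *Rps6ka4* (0.29), which were higher, and *Rps6ka5* (-0.51), which was lower. In the JNK arm, 1 member was higher, 1 was lower and 2 were not called. Beside these counts, 33.3% of all tested genes were higher and 41.0% lower.

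The ERK arm starts with *Map3k8* (Tpl2), a kinase held inactive by the NF-κB precursor p105 until IKK is active. *Map3k8* was weakly expressed, at 2.89, 3.58 and 3.03 RPKM in sh-NC and at 4.97, 5.21 and 5.17 RPKM in sh-*Etv5* (log2 fold change 0.56, SE 0.0742, adjusted p = 4.13e-05). *Map2k1* encodes the ERK kinase MEK1 and was among the most abundant members, at 79.7, 80.7 and 82.4 RPKM in sh-NC and at 119.9, 120.5 and 120.3 RPKM in sh-*Etv5*. All sh-*Etv5* libraries of both genes exceeded all sh-NC libraries, and for *Map2k1* the log2 fold change was 0.57 (SE 0.0313, adjusted p = 2.78e-08). *Map2k2*, the gene of MEK2, was at 39.0, 36.9 and 38.9 RPKM in sh-NC and at 41.0, 38.5 and 40.2 RPKM in sh-*Etv5*, with overlapping groups (log2 fold change 0.06, 95% confidence interval -0.03 to 0.15, adjusted p = 0.194). *Mapk3*, the gene of ERK1, rose from 45.0 ± 1.90 to 61.4 ± 2.72 RPKM (log2 fold change 0.44, SE 0.0445, adjusted p = 4.35e-06).

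In the p38 arm, *Map2k3* (MKK3), a kinase that activates p38, was measured at 49.8, 47.6 and 48.8 RPKM in sh-NC and at 32.5, 32.1 and 33.3 RPKM in sh-*Etv5*. Its mean fell by 33.1% without overlap between the groups (log2 fold change -0.57, SE 0.0368, adjusted p = 1.09e-07). *Map2k6* (MKK6), the other p38-activating kinase, was below the filter, at 0.380, 0.269 and 0.282 RPKM in sh-NC and at 0.201, 0.145 and 0.110 RPKM in sh-*Etv5*. These values are all low and did not overlap, and without the filter its log2 fold change was -0.19 (adjusted p = 0.0184). *Mapk14*, which encodes p38α, was measured at 36.1, 36.7 and 37.8 RPKM in sh-NC and at 24.4, 25.1 and 23.6 RPKM in sh-*Etv5* (log2 fold change -0.58, SE 0.0407, adjusted p = 2.02e-07). *Mapkapk2*, the gene of the p38 substrate kinase MK2, was the second most abundant member and fell from 183 ± 1.32 to 146 ± 1.83 RPKM (SD, n = 3, log2 fold change -0.32, SE 0.0299, adjusted p = 2.03e-06).

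The JNK arm was mixed. *Map2k4* (MKK4) had nearly the same mean in both groups, at 9.55 ± 0.297 RPKM in sh-NC and 9.55 ± 0.791 RPKM in sh-*Etv5* (log2 fold change -0.00, 95% confidence interval -0.14 to 0.14, adjusted p = 0.975). *Map2k7* (MKK7) fell from 18.5 ± 0.646 to 14.0 ± 1.08 RPKM (log2 fold change -0.38, SE 0.0577, adjusted p = 0.000115), a value that is uncertain because 32.8% of its 50-base stretches are shared with the overlapping *Gm49320* on the same strand. Of the JNK genes themselves, *Mapk8* (JNK1) was at 4.40 ± 0.214 and 4.41 ± 0.117 RPKM with overlapping groups (log2 fold change 0.01, 95% confidence interval -0.13 to 0.14, adjusted p = 0.945). *Mapk9* (JNK2) rose from 9.84 ± 0.347 to 11.9 ± 0.369 RPKM (log2 fold change 0.25, SE 0.0505, adjusted p = 0.000971). The remaining members are an inhibitor and a trafficking factor. *Tollip*, which binds IRAK1 and restrains signalling, rose from 17.5 ± 0.224 to 22.8 ± 0.639 RPKM (log2 fold change 0.36, SE 0.0417, adjusted p = 1.29e-05). *Unc93b1*, which escorts nucleic acid-sensing TLRs to endosomes, was measured at 106 ± 4.17 RPKM in sh-NC and 118 ± 4.29 RPKM in sh-*Etv5* (log2 fold change 0.15, SE 0.0402, adjusted p = 0.00564), and its call was lost when the libraries were rescaled to the same sum (adjusted p = 0.0662).

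**Figure D3:**
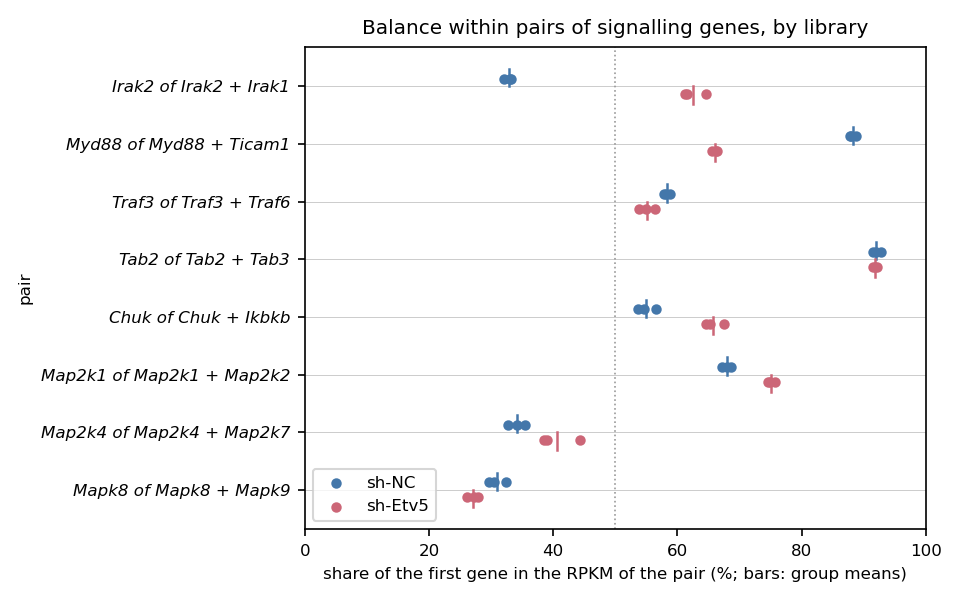
Share of the first gene in the summed RPKM of 8 gene pairs, in percent, with 1 point per library and bars at the group means. The share of Irak2 lies at 32.8% in sh-NC and 62.5% in sh-Etv5, on opposite sides of the dotted line at 50%, and only Tab2 and Tab3 have overlapping groups.

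The balance between genes that act at the same step was compared over 8 pairs as the log2 ratio of their RPKM in each library. The groups did not overlap for 7 pairs, for each of which the two-sided exact permutation test gave p = 0.1, the smallest value that 3 against 3 libraries allow, and 0.114 after Benjamini-Hochberg adjustment over the 8 pairs. No pair passed a threshold of 0.05, and groups also did not overlap for 76.4% of all tested single genes, so the ratios are given as values. A ratio of 2 genes does not depend on how a library is scaled. The largest shifts of this log2 ratio were -1.94 for *Myd88* against *Ticam1*, whose ratio was 7.46 in sh-NC and 1.95 in sh-*Etv5*, and 1.77 for *Irak2* against *Irak1*, whose ratio was 0.489 and 1.66. For *Map2k1* against *Map2k2* the ratio was 2.12 and 3.01, and their sum was 119 ± 1.91 and 160.2 ± 0.975 RPKM (SD, n = 3). The ratio of *Map2k4* to *Map2k7* was 0.517 and 0.683, and that of *Mapk8* to *Mapk9* was 0.447 and 0.372. The smallest separated shift was that of *Traf3* against *Traf6*, with 1.40 and 1.22. *Tab2* against *Tab3*, at 11.5 and 11.2, overlapped between the groups (exact permutation p = 0.7). *Irak2* with *Irak1* was the only one of the 8 pairs in which the more abundant gene differed between the groups.

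The other genes of the pathway comprised 55 genes that are no members of the set. Of these, 46 were tested, 22 were higher, 15 lower and 9 not called. The called share was 80.4%, near the 74.3% of all tested genes. In all, 15 passed 1.5-fold (32.6%, beside 24.8% of all tested genes), and the absolute log2 fold change had a median of 0.39. The difference from the members was not tested, and 3 of these genes, *Irak3*, *Scimp* and *Ikbke*, changed by more than *Ticam1*. The largest was *Irak3* (IRAK-M), an IRAK family member known as an inhibitor of the pathway, at 2.08, 2.83 and 2.42 RPKM in sh-NC and at 35.5, 38.2 and 35.9 RPKM in sh-*Etv5* (log2 fold change 3.45, SE 0.0744, adjusted p = 1.54e-11). *Scimp*, a membrane adaptor that binds TLR4, followed with 2.33 ± 0.0861 and 26.2 ± 1.16 RPKM (log2 fold change 3.03, adjusted p = 3.70e-12). Of the 8 tested genes grouped as TRIF branch kinases and TRAF partners, 5 were higher, 1 lower and 2 not called. *Ikbke* (IKKε) rose with a log2 fold change of 1.67, *Traf1* with 1.22 and *Tank* with 0.77, and the lower gene was *Traf2* (-0.51). The ubiquitin-binding inhibitor *Tnip1* (1.17) and the deubiquitinating enzyme *Tnfaip3* (A20, 0.86) were also higher, as were the MAP kinases *Mapk7* (ERK5, 1.05) and *Mapk11* (p38β, 0.88) and the TLR chaperone *Hsp90b1* (0.74). Lower were *Il18rap*, an IL-18 receptor chain (-1.09), and *Il1rl1*, the IL-33 receptor (-0.70). *Cnpy3*, grouped with *Hsp90b1* under receptor chains and chaperones, was also lower (-0.54). Of the 5 tested genes grouped as receptor-proximal inhibitors, only *Irak3* was higher. The 4 lower ones were *Il1rl1*, *Cd180* (-0.60), *Ly86* (-0.37) and *Sigirr* (-0.30). The IL-1 receptor gene *Il1r1* was near 0 (means of 0.0064 RPKM in sh-NC and 0.0036 RPKM in sh-*Etv5*) and was not tested. The same held for *Il18r1*, the other IL-18 receptor chain (0.0555 and 0.0179 RPKM). Among the IRAK genes, *Irak3* rose from the lowest mean of the 4 in sh-NC to the highest in sh-*Etv5*. The p38 genes also differed, since *Mapk11* rose from 2.61 ± 0.142 to 5.66 ± 0.401 RPKM while the more abundant *Mapk14* fell.

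**Figure D4:**
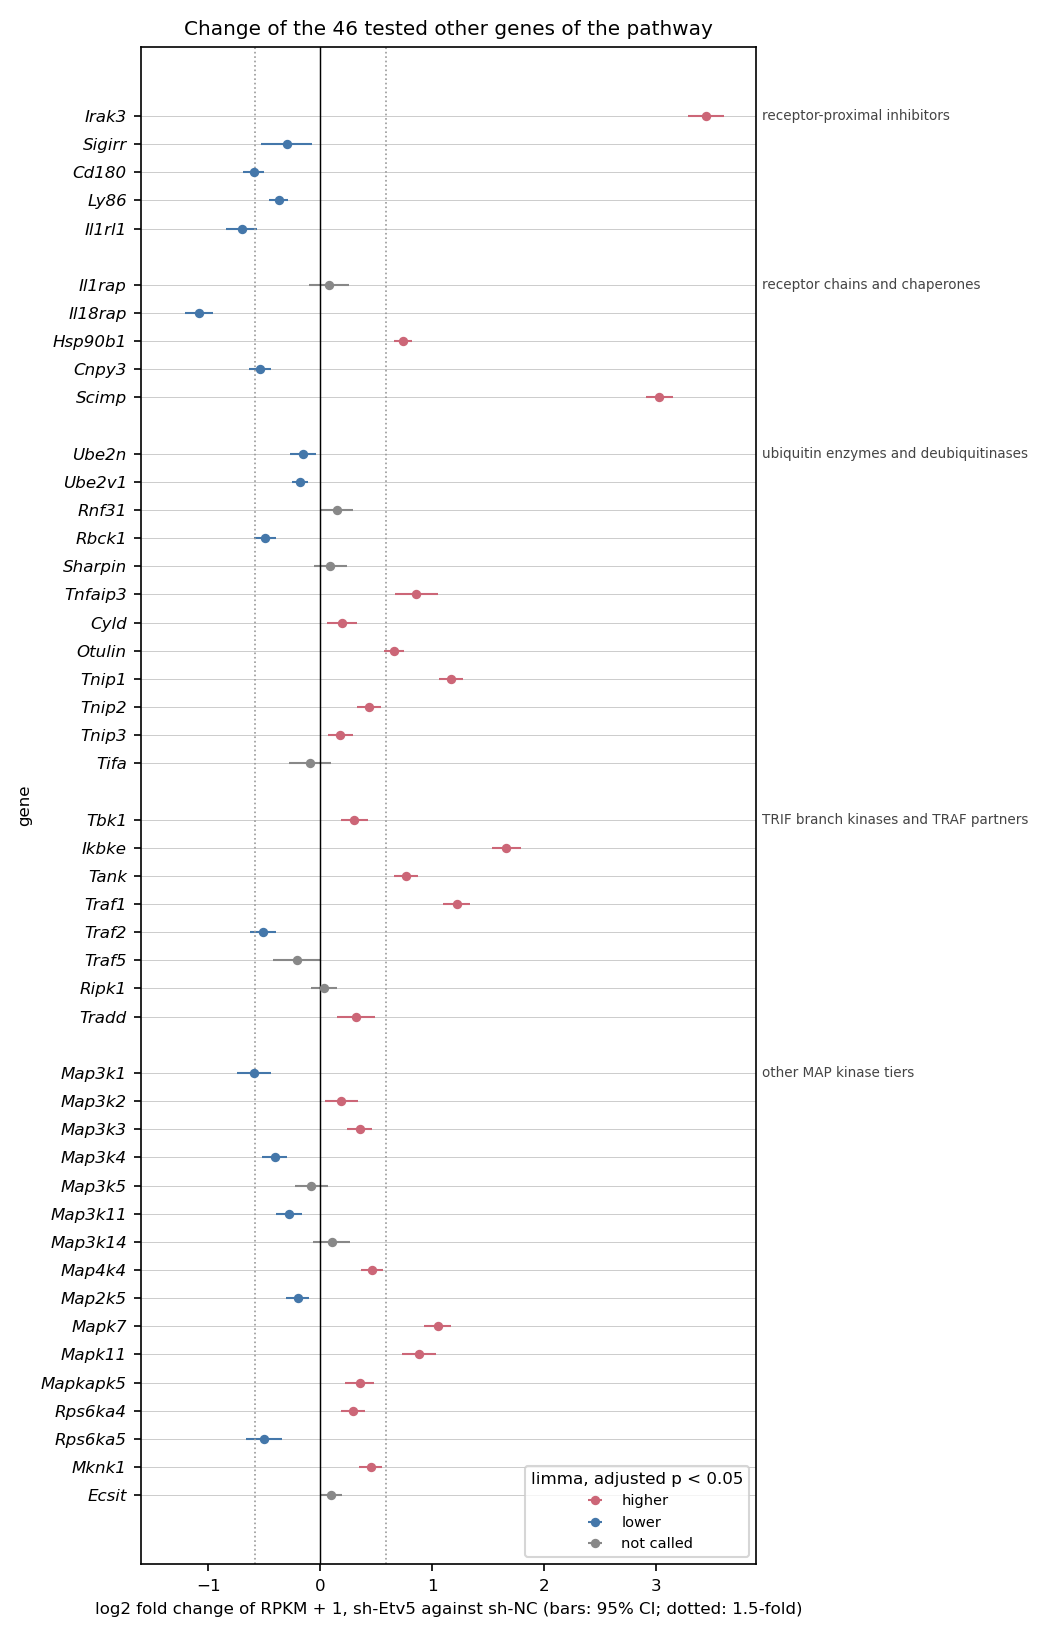
Difference between sh-Etv5 and sh-NC for the 46 tested genes of the pathway that are no members, as the log2 fold change of RPKM + 1 from limma with its 95% confidence interval (3 libraries per group), grouped by role. Irak3 (3.45) and Scimp (3.03) lie furthest to the right, and dotted lines mark 1.5-fold.

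In the order of levels over all 6 libraries, *Cd14*, *Mapkapk2*, *Unc93b1* and *Map2k1* were the most abundant members and *Tab3*, *Map2k6* and *Lbp* the least. *Unc93b1* was above *Map2k1* in every sh-NC library, at 111, 102 and 106 RPKM, whereas in sh-*Etv5* its 122, 119 and 114 RPKM overlapped with *Map2k1*. The neighbours *Map2k3* and *Myd88* overlapped in sh-NC, while in sh-*Etv5* every *Myd88* value was above every *Map2k3* value. The members past 1.5-fold were of middle rank, with *Irak1*, *Irak2* and *Ticam1* at rank 14, 15 and 16 of 34. The members just under 1.5-fold were *Mapk14* (log2 fold change -0.58), *Map2k3* (-0.57), *Map2k1* (0.57), *Tab1* (-0.56) and *Map3k8* (0.56), and which of them pass depends on the scaling and the pseudocount.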

How the data were processed

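The authors deposited RPKM values, with 1 value per gene symbol and library and no log transformation. The submitters' processing notes name the build mm10, and the study states an Illumina TruSeq RNA kit and limma. The aligner, the annotation and the strand setting are not given in the sources used here. Low values were not whole multiples of a step, so the depth of each library is unknown, and no counting interval was computed. A gene was tested if 3 or more of the 6 libraries reached 1 RPKM. The groups were compared on log2(RPKM + 1) by limma 3.58.1 under R 4.3.3 with trended eBayes, two-sided and without covariates, with Benjamini-Hochberg adjustment over all 10738 tested genes. This step was tested on simulated data. A change of 1.5-fold was asked for in addition where stated. Ratios of gene pairs were compared with an exact permutation test (NumPy 2.4.6 under Python 3.11.15). Coordinates are from GENCODE M21 (GRCm38), shared 50-base stretches were counted over its transcripts, and promoters are from RefSeq (GRCm38.p6).

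Every member is named. Values of each library are given for members past 1.5-fold or not tested. They are also given for some members at the ends of the order of levels or in the pairs described, and the rest have group means. Of other genes, *Etv5* and the 12 pathway genes with the largest change past 1.5-fold are named. The marker genes, the overlapping genes and some further pathway genes, above or below the filter, were named in addition. A further gene of the pathway is not reported here and is left out of the counts and pairs. The members and lists were chosen with earlier results of these data known. The alternatives tried were no filter or a minimum mean of 5 RPKM, a pseudocount of 0.1 or 0.01, rescaling to the same sum, quantile normalization, no trend, an adjusted p under 0.01, the replicate block and leaving out each library. Median-ratio size factors, the motif CCGGAA and the MAP kinase arms were added after the data were seen.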

Additional observations from a re-analysis of the deposited data

How the results depend on the processing

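Over the alternatives, 24 to 28 members were called, against 26, and 33 to 39 of the other pathway genes, against 37. The number tested and the share of all genes called moved as well. The 24 were of 28 tested members, at a minimum mean of 5 RPKM, where 78.2% of all tested genes were called. The 28 were of 32, with quantile normalization (75.1%). Without a filter, 27 of 33 were called, beside 47.8% of all tested genes. The number of members past 1.5-fold, 3, moved to 6 with a pseudocount of 0.1 and 6 with 0.01 (adding *Tab1*, *Mapk14* and *Map3k8*), to 6 after rescaling to the same sum (adding *Map2k3*, *Tab1* and *Mapk14*) and to 5 with median-ratio size factors (adding *Map2k1* and *Map3k8*). With 1 library left out it ranged from 3 to 5, with 5 without sh-NC replicate 2 (adding *Tab1* and *Map3k8*) and 5 without sh-*Etv5* replicate 2 (adding *Tab1* and *Mapk14*). *Ticam1*, *Irak1* and *Irak2* passed in all of these. Signs turned only for members that were not called. *Tirap* had a log2 fold change of -0.0499 after rescaling to the same sum, -0.0205 with quantile normalization and -0.0582 to 0.0663 with 1 library left out. The same settings gave -0.0451, -0.0440 and -0.0276 to 0.0275 for *Mapk8*. *Map2k4* had 0.0464 with median-ratio size factors and -0.0532 to 0.0552 with 1 library left out, and *Ly96* -0.00252 to 0.305, with a call (adjusted p = 0.0279) only without sh-*Etv5* replicate 3. *Tab3* was called with quantile normalization (adjusted p = 0.0197), and *Map2k2* with quantile normalization (adjusted p = 0.0294) and median-ratio size factors (adjusted p = 0.0254). The cause of these changes was not tested. The median log2 fold change of all tested genes was -0.05, and -0.10, -0.07 and -0.00 after rescaling to the same sum, quantile normalization and median-ratio size factors, and the share of calls that were higher ranged from 38.8 to 50.1% over all genes, against 44.8%. Deviations of same-numbered libraries from their group means had correlations of 0.07, -0.07 and -0.04 for numbers 1, 2 and 3. The highest values with a differently numbered library were 0.01, 0.11 and 0.06. No clear sign of pairing by number was thus seen, though so few libraries cannot exclude it. With the number as a replicate block, 26 members, 37 other pathway genes and 3 members past 1.5-fold were called. Of all tested genes, 73.6% were called in that setting and 24.8% passed 1.5-fold. Depth in reads is unknown, which limits the weakest members, *Tab3*, *Map3k8* and *Map2k6*, most.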
